A study of Mus musculus with 10 samples.

Results

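The genes described here are 8 members of subfamily A of the ATP-binding cassette (ABC) transporters, out of 36528 gene identifiers in the deposited tables. They comprise 5 neighbours on mouse chromosome 11 (Abca5, Abca6, Abca8a, Abca8b and Abca9) and 3 genes elsewhere (Abca2, Abca3 and Abca7). The members were selected on results of these same libraries, in which Abca9 was lower after anti-MerTK. The differences between the treatment groups given below for the 8 genes are therefore a description, and the adjusted p-values beside them are the values already known when the genes were chosen. Subfamily A has 8 further genes in the list used here, and 16 in all.

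Tumour-associated macrophages (TAMs) were purified from MC-38 tumours, which grow from a mouse colon carcinoma line, in C57Bl/6 mice. The treated group received an antibody against MerTK, a receptor with which macrophages bind and engulf dying cells, and the control group one directed at gp120, a protein of the HIV envelope with no counterpart in mice. Each group had 5 libraries of polyadenylated RNA, taken 24 h after treatment per the design text. All mice bore tumours, and neither the animals' age nor the markers used for purification is stated in the labels.

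ABC-A proteins are large membrane transporters that use ATP to move phospholipids, cholesterol and related lipids across or out of membranes. ABCA1, the best known of them, loads cholesterol and phospholipid onto apolipoprotein A-I at the surface of macrophages and so relieves the lipid load left by engulfed cells. ABCA3 fills the lamellar bodies of lung alveolar cells with surfactant lipid, ABCA7 moves phospholipid and has been tied to phagocytosis, and ABCA2 and ABCA5 reside in lysosomes and late endosomes. The transporters of the chromosome 11 cluster arose by duplication, and their substrates are poorly known. ABCA9 was described as a gene induced when human monocytes become macrophages and repressed by cholesterol loading.

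The libraries held 33159858 to 46108687 counted reads, with a count for 16475 to 18090 genes. Libraries of the same group differed by more than sampling noise, with a chi-square per degree of freedom of at least 29.0. Whether each library came from its own mouse is not stated, so p-values reflect the spread between samples alone, and that spread may be technical. On the first principal component of all genes, anti-MerTK replicate 2 lay farthest out, at 46.6, and anti-MerTK replicate 5 was the only library of its group with a negative value, at -12.9. The summed level of 12 macrophage markers ranged over 37430 to 50628 CPM (reads scaled to library size) in the control libraries and 37843 to 46796 CPM in the treated ones, led by Apoe and Lyz2, none of the 12 was at 0 in every library, and 1 passed the test, Fcgr1, which was higher. Mertk gave 91.1 ± 14.3 CPM in the controls and 78.9 ± 4.96 CPM in the treated libraries (SD, n = 5), with a log2 fold change of -0.21 (SE 0.10, adjusted p = 0.263 in edgeR).

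Within the chromosome 11 cluster a single gene carried nearly all of the signal. The cluster spans 405.518 kb of GRCm38 chromosome 11 (109932206 to 110337723), with Abca8b, Abca8a, Abca9, Abca6 and Abca5 in that order and all on the minus strand. Abca9 alone held 97.4% to 99.1% of the cluster's reads in the anti-gp120 libraries and 95.4% to 98.3% in the anti-MerTK libraries. The genes on either side of it, Abca8a and Abca6, had at most 10 reads in any of the same libraries. Upstream sequences of 4 genes are printed to show how the start of the expressed gene compares with that of a neighbour with almost no reads (Abca8a), of the gene at the far end of the cluster (Abca5) and of an expressed member outside it (Abca3). Each is the run of 250 bases before the RefSeq start on GRCm38.p6, written 5′ to 3′ on the gene's own strand, with CpG dinucleotides in capitals. The windows are chr11:110168154-110168403 (minus strand) for Abca9, chr11:110095938-110096187 (minus) for Abca8a, chr11:110337717-110337966 (minus) for Abca5 and chr17:24351773-24352022 (plus) for Abca3. These starts need not be the outermost end of the gene. The windows of Abca9, Abca5 and Abca3 reach into their gene's full span, and the Abca8a window lies wholly within its gene's span. The Abca3 window also lies within the span of Abca17.
Abca9: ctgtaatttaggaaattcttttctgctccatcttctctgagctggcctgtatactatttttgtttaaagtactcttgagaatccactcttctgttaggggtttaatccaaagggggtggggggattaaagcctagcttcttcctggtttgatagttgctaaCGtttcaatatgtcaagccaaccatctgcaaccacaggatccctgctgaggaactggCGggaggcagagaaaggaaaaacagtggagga
Abca8a: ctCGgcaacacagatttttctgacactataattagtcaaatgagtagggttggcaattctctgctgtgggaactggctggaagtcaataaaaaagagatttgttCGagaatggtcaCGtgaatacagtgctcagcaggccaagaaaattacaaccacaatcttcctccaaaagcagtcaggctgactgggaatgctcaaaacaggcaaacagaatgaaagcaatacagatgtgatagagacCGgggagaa
Abca5: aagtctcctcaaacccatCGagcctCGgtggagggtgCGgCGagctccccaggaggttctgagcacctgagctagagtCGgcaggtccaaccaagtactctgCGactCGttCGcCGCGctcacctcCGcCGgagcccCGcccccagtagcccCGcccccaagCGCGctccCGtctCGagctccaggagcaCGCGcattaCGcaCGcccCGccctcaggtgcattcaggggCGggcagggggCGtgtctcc
Abca3: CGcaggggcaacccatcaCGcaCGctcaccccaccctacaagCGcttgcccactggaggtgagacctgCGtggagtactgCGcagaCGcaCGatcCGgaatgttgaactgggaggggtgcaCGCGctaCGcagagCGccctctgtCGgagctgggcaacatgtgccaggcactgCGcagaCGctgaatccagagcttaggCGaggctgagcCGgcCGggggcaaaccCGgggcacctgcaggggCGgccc

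CpG dinucleotides, which are frequent at the starts of broadly expressed genes, did not follow expression in these windows. The Abca9 window held 2 of them and its GC content was 44.4%, against a median of 6 CpG (quartiles 2 and 16) and 52.4% GC over 32851 RefSeq windows of the same length. Of all windows, 18.8% had fewer CpG than Abca9. The window of Abca8a held 4, below the median, and that of Abca8b held 6, equal to it. Abca5, at the edge of the same cluster, had 25, and 89.3% of all windows had fewer. Outside the cluster, Abca3 had 21, Abca2 had 20 and Abca7 had 12. A window was found for 7 of the 8 genes, Abca6 being the exception.

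A search of both strands for short motifs known from macrophage enhancers gave the following matches, which are letters and not shown binding sites. The letters GAGGAA, the core bound by the macrophage factor PU.1, occurred 1 time in the Abca9 window, 1 time in that of Abca8a and 2 times in that of Abca8b, and are present in 23.3% of all windows. The letters TGCTGA, part of the element bound by MAF factors, occurred 1 time each in the windows of Abca9 and Abca8a (16.1% of all windows). The letters CACGTG, an E-box, occurred 1 time in the Abca8a window (6.02% of all windows). None of these letters, nor TTGCNNAA (C/EBP, 9.56%), TGANTCA (AP-1, 6.75%) or the promoter element TATAAA (12.4%), was found in the windows of Abca5, Abca2, Abca3 or Abca7, and the last 3 were not found in any of the 7 windows. In the Abca9 window the PU.1 and MAF matches overlap by their GA, at bases 205 to 214 of 250, whereas those of Abca8a lie apart. That stretch of the Abca9 window lies inside the gene's full span.

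Levels were compared between genes as RPKM (reads per length of the gene model and per size of the library), the authors' size-factor-adjusted values. In the anti-gp120 libraries the order of the group means was Abca9, Abca3, Abca7, Abca2, Abca5, Abca8b, Abca6 and Abca8a. Abca9, at 9.58 ± 2.61 RPKM, and Abca3, at 8.98 ± 1.22 RPKM (SD, n = 5), overlapped, with Abca9 the higher of the pair in 3 of 5 libraries. The ranges of Abca3 and Abca7 overlapped as well, although Abca3 was the higher in 5 of 5 libraries, and those of Abca8b, Abca6 and Abca8a overlapped at the bottom. After anti-MerTK, Abca9 (4.86 ± 0.761 RPKM) lay below Abca3 (7.93 ± 0.511 RPKM) in 5 of 5 libraries.

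**Figure D1:**
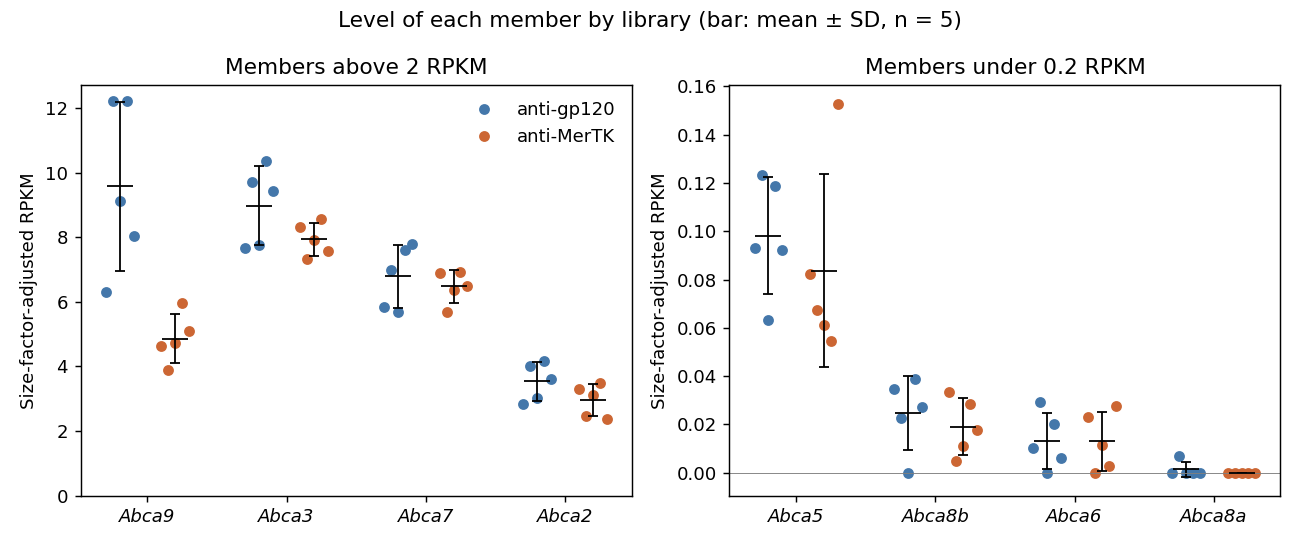
RPKM of the 8 ABC-A genes in each of the 5 anti-gp120 and 5 anti-MerTK libraries (points), with group means. Abca9 shows 2 separate groups of points, at 6.30 to 12.2 and 3.88 to 5.97 RPKM, while the points of the other genes overlap between treatments.

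Abca9 (Entrez 217262, GRCm38 chromosome 11, 110100749 to 110168274) was the one member past the threshold. Its level in anti-gp120 replicates 1 to 5 was 6.30, 12.2, 9.13, 12.2 and 8.03 RPKM, from 1472, 3313, 1905, 2883 and 2098 reads. In anti-MerTK replicates 1 to 5 it was 4.62, 3.88, 4.72, 5.97 and 5.10 RPKM, from 1268, 808, 1316, 1696 and 1169 reads. The groups did not overlap, with the lowest anti-gp120 library (replicate 1) just above the highest anti-MerTK library (replicate 4), and the control libraries were the more scattered (coefficient of variation 27.2% against 15.7%). The log2 fold change was -0.98 (SE 0.18), so the level fell by 49.3%, with an adjusted p of 0.0212 in edgeR's quasi-likelihood test over 13588 genes. Among the 187 genes called lower it had the 6th largest fall, and the 3rd among those averaging a log2 CPM of 1 or more. By p it ranked 125th of all genes tested.

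The Abca9 call was lost when each of 4 libraries was left out in turn, while its log2 fold change stayed at -0.97 to -0.88 in those fits. Its adjusted p was 0.0603 without anti-gp120 replicate 4, and 0.0625, 0.0506 and 0.0618 without anti-MerTK replicates 1, 2 and 3. It was 0.0844, with a log2 fold change of -0.91, in the 8 libraries left without anti-MerTK replicates 2 and 5. In bulk RNA, fewer cells expressing a gene and less RNA per cell cannot be told apart.

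Abca5 (Entrez 217265, chromosome 11, 110269369 to 110337723), a lysosomal transporter that is widely expressed in tissues, was present only at a low level. It gave 0.0933, 0.123, 0.0634, 0.119 and 0.0923 RPKM in anti-gp120 replicates 1 to 5 and 0.0823, 0.0673, 0.0613, 0.0548 and 0.153 RPKM in anti-MerTK replicates 1 to 5. The groups overlapped, and anti-MerTK replicate 5 held the highest value of the 10 libraries. The log2 fold change was -0.25 (SE 0.31, adjusted p = 0.678 in edgeR), and -0.57 (adjusted p = 0.209) without that library. These values rest on 17 to 45 reads a library, which is the limit on their precision.

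The remaining cluster genes, Abca8b, Abca6 and Abca8a, did not pass the filter on low counts and have no test. They are paralogs of Abca9, and little is known of what they transport. Abca8b (Entrez 27404, chromosome 11, 109932206 to 109996274) had 8, 6, 0, 9 and 7 reads in anti-gp120 replicates 1 to 5 and 9, 1, 3, 8 and 4 in anti-MerTK replicates 1 to 5. Abca6 (Entrez 76184, chromosome 11, 110174638 to 110251776) had 3, 10, 0, 6 and 2 reads and then 8, 0, 4, 1 and 8. Abca8a (Entrez 217258, chromosome 11, 110025634 to 110097580) had 2 reads in anti-gp120 replicate 2 and none in the other 9 libraries, where a count of 0 allows up to 3 counts, or 0.0101 to 0.0137 RPKM. Such limits cover counting error only. Both treatments gave low values for these genes, and no difference between them was detectable at this depth.

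Fibroblast markers were measured beside these low counts. Of 10 fibroblast markers, among them Col3a1 and Col6a1, 9 were tested and 0 passed in edgeR. The log2 fold changes of the 9 had a median of -0.41 with 7 negative, against a median of -0.01 over all genes tested. The summed level of the 10 was 12.3 to 53.7 CPM in the controls and 8.18 to 54.9 CPM after anti-MerTK. The lowest sums were in anti-gp120 replicate 3 and anti-MerTK replicate 2, the libraries with no read for Abca6, and the highest in anti-gp120 replicate 2 and anti-MerTK replicate 5. The part of fibroblast RNA in the counts of Abca5, Abca6 and Abca8b was not tested. Of these 4 libraries, Abca9 was at 9.13 and 12.2 RPKM in anti-gp120 replicates 3 and 2. It was at 3.88 and 5.10 RPKM in anti-MerTK replicates 2 and 5. The other libraries follow, and no association of Abca9 with the fibroblast sums was computed. Anti-gp120 replicate 1, with a sum of 37.2 CPM, had the lowest control value of Abca9, 6.30 RPKM. Anti-gp120 replicate 4 had 17.5 CPM and 12.2 RPKM, and replicate 5 had 17.8 CPM and 8.03 RPKM. Anti-MerTK replicate 4, with 15.2 CPM, had the highest treated value, 5.97 RPKM. Anti-MerTK replicates 1 and 3, with 17.5 and 24.1 CPM, had 4.62 and 4.72 RPKM. The part of fibroblast RNA in the Abca9 values was not tested.

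Reads of the cluster genes can be told apart for the most part by sequence. In the longest coding transcripts of GENCODE M21, identical bases made up 70.3% of the coding sequence between Abca9 and Abca8a and 65.4% between Abca9 and Abca6. The closest pair was Abca8a and Abca8b, at 74.0%, while Abca5 shared 57.7% to 58.8% with the other cluster genes. Of all 50-base words in the Abca9 transcript, 0.205% also occurred in a transcript of another gene, in each case Abca6. The share was 2.46% for Abca8b, 1.89% for Abca8a, 0.250% for Abca6 and 0 for Abca5. Only unique alignments were counted, so words held in common would lose reads rather than add them.

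**Figure D2:**
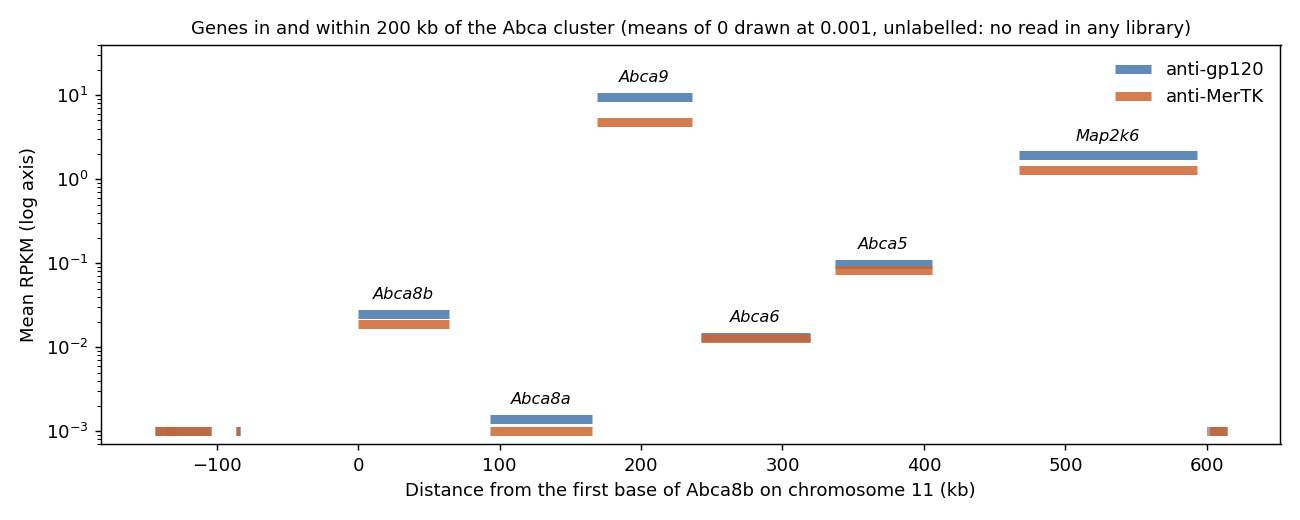
Mean RPKM per treatment (log axis, means of 0 drawn at 0.001) against distance from the first base of Abca8b in kb, for the genes in and within 200 kb of the cluster. Abca9 and Map2k6 stand above their neighbours, and the 5 genes without a read in any library carry no name.

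Around the cluster, 6 further named genes lie within 200 kb of its ends, and 1 of them had a count. This was Map2k6 (chromosome 11, 110399102 to 110525522), which encodes the kinase MKK6 upstream of p38. It gave 1.31, 1.99, 2.27, 1.81 and 2.20 RPKM in anti-gp120 replicates 1 to 5 and 1.28, 0.9995, 1.40, 1.41 and 1.29 RPKM in anti-MerTK replicates 1 to 5. The groups overlapped through anti-gp120 replicate 1, and the log2 fold change of -0.59 (SE 0.16) did not pass the test (adjusted p = 0.0647 in edgeR). Between Abca9 and Map2k6 lie Abca6 and Abca5, at the low levels given above.

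Outside the cluster, Abca3, Abca7 and Abca2 were expressed at levels of the same order as Abca9, and their values overlapped between the treatments. Of the 5 members that passed the filter, 1 was called lower (Abca9), where 1.38% of all 13588 tested genes were called lower and 3.22% were called in either direction. The fold changes of all 5 were negative, with a median of -0.25, against a median of -0.01 and 51.0% negative over all genes tested. These counts belong to the contrast by which the genes were chosen and support nothing further. A decrease without overlap between the groups was seen for Abca9 among these 5, and for 2.71% of all genes tested.

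Abca3 (Entrez 27410, chromosome 17, 24351921 to 24410204), the surfactant lipid transporter, gave 7.65, 9.70, 7.75, 10.4 and 9.43 RPKM in anti-gp120 replicates 1 to 5. It gave 8.32, 7.32, 7.90, 8.56 and 7.57 RPKM in anti-MerTK replicates 1 to 5. The groups overlapped in part, with 5 anti-MerTK libraries below the control mean and 2 below the lowest control. The log2 fold change was -0.18 (SE 0.09, adjusted p = 0.282 in edgeR). Its RefSeq gene model overlaps that of Abca17 on the opposite strand, and 14.3% of its 50-base words also occur in transcripts of Abca17 or D330041H03Rik, so its reads are uncertain to that extent. Abca17 itself had 78 reads over the 10 libraries.

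Abca7 (Entrez 27403, chromosome 10, 79996453 to 80015572), the phospholipid transporter tied to phagocytosis, gave 5.86, 6.98, 5.68, 7.62 and 7.81 RPKM in anti-gp120 replicates 1 to 5. It gave 6.91, 5.69, 6.36, 6.94 and 6.50 RPKM in anti-MerTK replicates 1 to 5. The anti-MerTK values lay within the span of the controls, with a log2 fold change of -0.07 (SE 0.10, adjusted p = 0.723 in edgeR).

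Abca2 (Entrez 11305, chromosome 2, 25428599 to 25448544), an endolysosomal transporter important for myelin lipids in brain, gave 2.84, 4.01, 3.02, 4.18 and 3.63 RPKM in anti-gp120 replicates 1 to 5. It gave 3.32, 2.47, 3.11, 3.50 and 2.39 RPKM in anti-MerTK replicates 1 to 5. The means were 3.54 ± 0.592 and 2.95 ± 0.502 RPKM (SD, n = 5), the groups overlapped, and the log2 fold change was -0.26 (SE 0.14, adjusted p = 0.297 in edgeR).

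Ratios within a library show the cluster against the other members without library scaling. The summed RPKM of the 5 cluster genes was 9.72 ± 2.64 after anti-gp120 and 4.98 ± 0.772 after anti-MerTK, and that of Abca2, Abca3 and Abca7 was 19.3 ± 2.71 and 17.4 ± 1.45 (SD, n = 5). The ratio of cluster to other members was 0.391 to 0.599 (mean 0.5002) in the anti-gp120 libraries and 0.256 to 0.322 (mean 0.286) in the anti-MerTK libraries. Without Abca9 the cluster summed to 0.137 ± 0.0481 and 0.116 ± 0.0528 RPKM, which overlapped, so the separation of the ratios came from Abca9. Abca9 over Abca2 was 2.21 to 3.05 after anti-gp120 and 1.39 to 2.14 after anti-MerTK. Abca9 over Abca3 was 0.823 to 1.26 and 0.530 to 0.697, and Abca9 over Abca7 was 1.03 to 1.75 and 0.670 to 0.860. None of these 3 ratios overlapped between the treatments, whereas that of Abca9 to Abca1, at 0.125 to 0.192 and 0.0891 to 0.139, did.

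**Figure D3:**
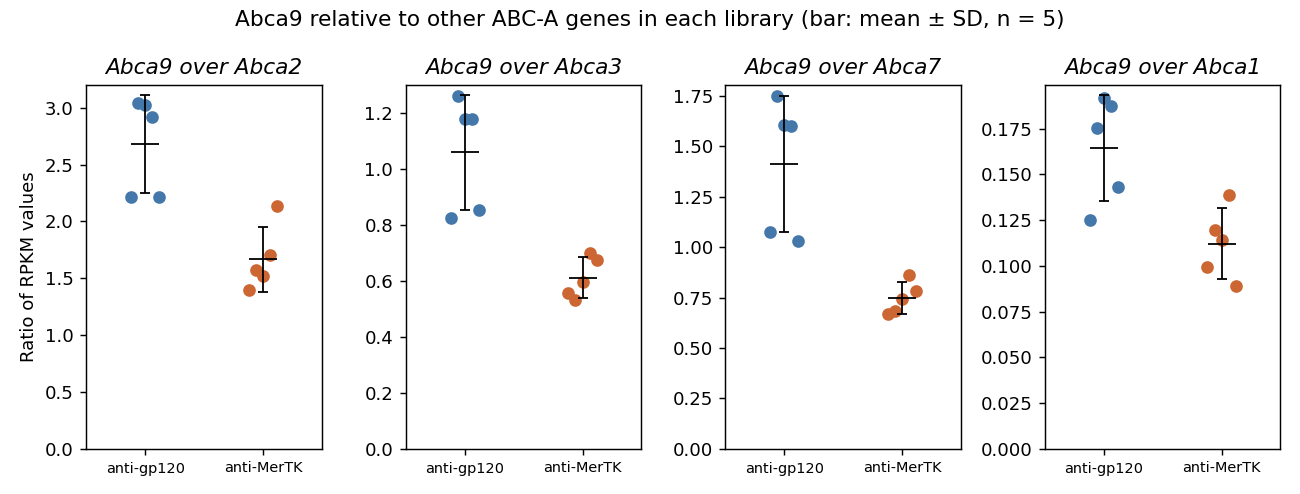
Ratio of the RPKM of Abca9 to that of Abca2, Abca3, Abca7 and Abca1 in each library, by treatment (points), with group means. The treatments separate for Abca2, Abca3 and Abca7 and overlap for Abca1, where the highest anti-MerTK ratio is 0.139 and the lowest anti-gp120 ratio 0.125.

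Transcript length moved with the fold changes, and all 8 genes have long transcripts, of 5240 to 8231 bases. Of 11618 tested genes with a coding transcript length, the 2385 with at least 5000 bases had a median log2 fold change of -0.14, with 73.9% negative and 3.82% called lower. The 2930 genes under 2000 bases had a median of 0.07, with 33.9% negative. With offsets for transcript length in the fit, a setting added after seeing the data, Abca9 kept its call at -0.87 (adjusted p = 0.0236 in edgeR). The fold changes of Abca2, Abca3 and Abca5 came to -0.12, -0.07 and -0.08, and that of Abca7 changed sign to 0.0426. The part of transcript length in the differences of these genes was not tested further.

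Among the 8 ABC-A genes that were not selected, Abca1 was by far the most abundant. It gave 57.8 ± 9.44 RPKM after anti-gp120 and 44.1 ± 9.01 RPKM after anti-MerTK (SD, n = 5), with a log2 fold change of -0.39 (SE 0.15) that did not pass (adjusted p = 0.157 in edgeR). All anti-MerTK libraries but replicate 5, at 57.3 RPKM, lay below the lowest anti-gp120 library. Abca14 was tested, on 223 reads in all, and had a log2 fold change of -0.17 (SE 0.39, adjusted p = 0.839). Abca13 had 39 reads over the 10 libraries, Abca4 had 1, and Abca12, Abca15 and Abca16 had none.

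In the other ABC families, 26 of 37 genes were tested, of which 2 were lower and 0 higher in edgeR, with a median log2 fold change of -0.10. Of all 13588 genes tested, 1.38% were called lower and 3.22% in either direction, and the median was -0.01. Abcb1b, a P-glycoprotein that exports drugs and lipids, fell from 45.97 ± 5.89 to 32.1 ± 2.43 CPM (SD, n = 5), a log2 fold change of -0.52 (SE 0.09, adjusted p = 0.0169). Abcd3, a peroxisomal transporter of fatty acyl-CoA, fell from 44.2 ± 4.17 to 35.9 ± 1.59 CPM, a log2 fold change of -0.30 (SE 0.07, adjusted p = 0.0461). Neither gene overlapped between the treatments, and a decrease without overlap was seen for 2.71% of all genes tested. Abcg2, an exporter of porphyrins and drugs, had the smallest p of its family and a log2 fold change of -0.38 (adjusted p = 0.0953). Abcc3 gave -0.19 (adjusted p = 0.291) and Abcf2 gave 0.11 (adjusted p = 0.298).

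**Figure D4:**
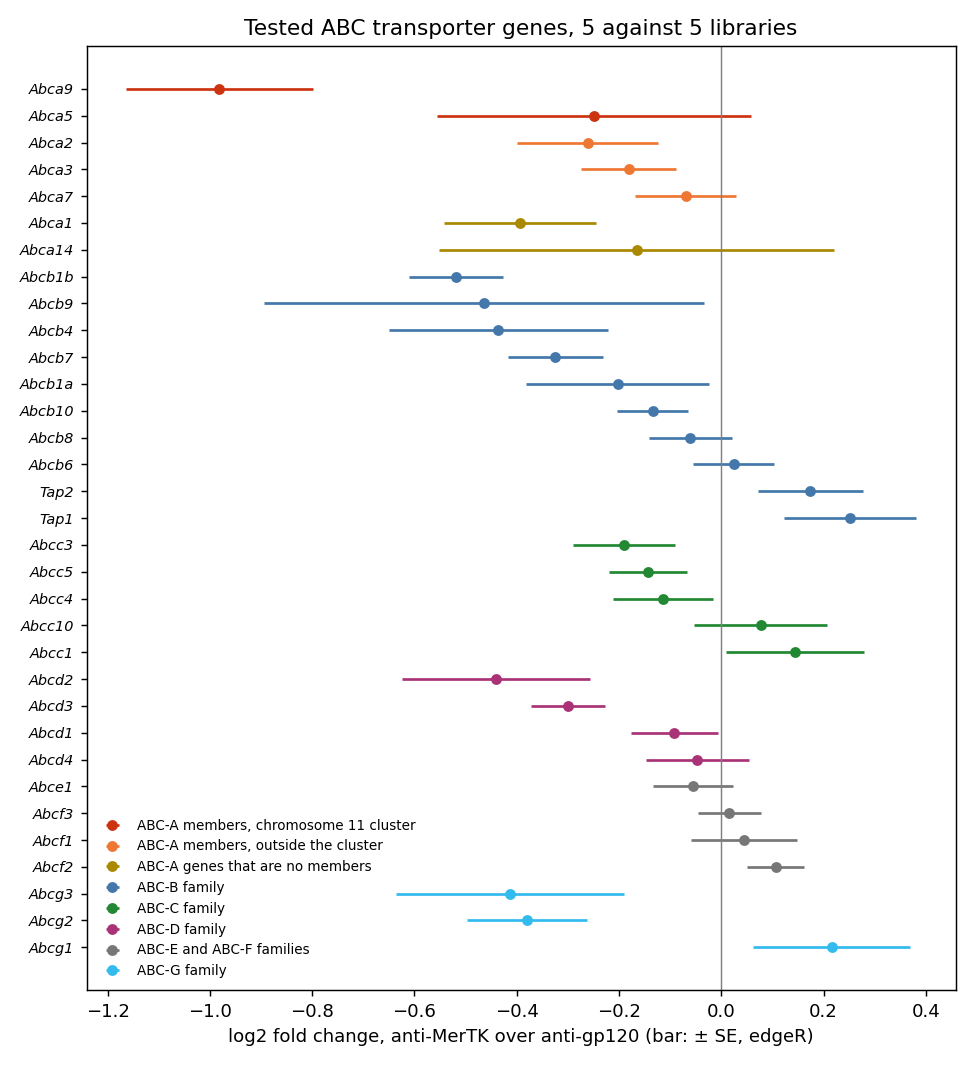
Log2 fold change (anti-MerTK against anti-gp120) with its SE for the ABC transporter genes tested. Abca9, at -0.98, lies lowest of the genes plotted, and Abcb1b and Abcd3, at -0.52 and -0.30, are the others past the threshold.

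Markers of other cells were read beside the Abca9 values. The tissue-resident macrophage list summed to 2620 to 3571 CPM in the controls and 2389 to 3149 CPM after anti-MerTK, led by Selenop and Pltp, and 0 of its 12 genes passed in edgeR. Its log2 fold changes had a median of 0.09 with 5 of 12 negative, and ranged from -0.52 to 1.11. Those of Selenop and Pltp were -0.43 and 0.16 (adjusted p = 0.141 and 0.497 in edgeR). The monocyte list summed to 645 to 1478 and 859 to 1704 CPM, and 1 of its 10 genes passed, Plac8, which was higher. The log2 fold changes of the monocyte list had a median of 0.75 with 1 of 10 negative, and those of the 5 tested dendritic cell markers a median of 0.37 with 1 negative, against -0.01 over all genes tested. Dendritic cell markers summed to 25.03 to 64.1 and 48.8 to 92.4 CPM, endothelial markers to 82.6 to 131 and 70.8 to 119 CPM, and neutrophil markers to 64.5 to 106 and 74.0 to 92.2 CPM. Pecam1, at a mean of 91.3 CPM, and Csf3r, at 77.8 CPM, made up most of the last 2 sums. The log2 fold changes of the 4 tested endothelial markers had a median of 0.52 with 1 negative. Those of the 4 tested neutrophil markers had a median of 0.63 with 1 negative, and 0 of either list passed in edgeR. T cell markers summed to 8.57 to 15.4 and 3.24 to 14.9 CPM and B cell markers to 19.8 to 40.2 and 17.6 to 30.5 CPM. Median log2 fold changes were -0.26 for the 4 tested T cell markers (3 negative) and 0.09 for the 2 tested B cell markers (1 negative). The epithelial list summed to 36.0 to 59.9 and 25.8 to 34.2 CPM, nearly all of it Cdh1, which was lower (log2 fold change -0.72), with Cldn4 at 0 in every library. The part of changed cell makeup in the Abca9 difference was not tested.

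Within the treatment groups, the genes whose levels followed Abca9 most closely were not transporters of lipid. Likeness was the Pearson correlation of log2 CPM over the 10 libraries after each group's mean was subtracted, over 10584 named genes with a mean of at least 1 CPM, a description with no test. The 5 most alike were Dennd5a (r = 0.969), Rbl2 (0.964), Jmy (0.953), Skil (0.951) and Trpm7 (0.948). Like Abca9, at 6384 bases, all 5 have long transcripts, of 4925 to 8776 bases. The part of transcript length in these correlations was not tested. Dennd5a acts on Rab proteins, Rbl2 is a pocket protein of the cell cycle, Jmy is an actin nucleator, Skil is a repressor of SMAD signals and Trpm7 is a cation channel with a kinase domain. Rbl2 (log2 fold change -0.42, adjusted p = 0.0376) and Trpm7 (-0.51, adjusted p = 0.0206) were themselves lower in edgeR. Ranked by Spearman's rho, 2 of the 5 were still among the first 5, Jmy and Rbl2. By the Pearson measure Abca9 had r = 0.77 with Mertk, 0.75 with Abca3, 0.71 with Abca2, 0.65 with Abca1 and 0.56 with Abca7. Their places among the 10584 genes were 383, 446, 667, 934 and 1417, so many other genes were more alike. The points share the library, its depth and its RNA, so these values do not separate genes from library properties.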

How the data were processed

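Polyadenylated RNA of purified TAMs was sequenced in 10 libraries, 5 per antibody. Replicates are numbered in accession order only, so no samples are paired. Reads were aligned with GSNAP to GRCm38, per the submitters' processing notes. For the aligner's version, annotation, counting tool and use of strand, nothing is given in the sources used here. The deposited counts are whole numbers of uniquely aligned reads per gene model (Entrez identifiers), per the file headers. The deposited RPKM values include a size factor that the authors applied to each library, per the file headers.

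Names and gene coordinates came from RefSeq (GRCm38.p6), which matched 31049 of 36528 identifiers. The 5479 others held 2.14% to 2.66% of a library's counts and stayed in the tests. Counts were tested with edgeR 4.0.16 (quasi-likelihood, robust, TMM, filterByExpr, treatment only, R 4.3.3), two-sided, with Benjamini-Hochberg adjustment over 13588 genes at 0.05. CPM values use TMM library sizes, and log2 CPM a prior count of 2. The script was tested on simulated data. Transcript lengths, shared words and coding identity (Biopython 1.88, identical aligned bases over the longer coding sequence) used GENCODE M21, and upstream windows RefSeq's table.

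The members and all gene lists were chosen with earlier results of these data known. The genes named are the members, the other ABC-A genes, the genes past the threshold and the gene of smallest p in each other ABC family, genes within 200 kb of the cluster, the 5 genes most like Abca9, 2 genes of each marker list and Mertk. Fcgr1, Plac8, Cldn4 and D330041H03Rik were named after their values were seen. Alternatives were other normalizations and filters, DESeq2 1.42.0, limma-voom (limma 3.58.1), leaving out each library, 8 libraries, and offsets for transcript length. Figures used matplotlib 3.10.9.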

Additional observations from a re-analysis of the deposited data

Results flagged for a closer look

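Among 16 groups of 5 values (8 genes in both treatments), 2 held a library far from the other 4, where chance flags about 1 in 20 groups of continuous values. Abca5 gave 0.153 RPKM in anti-MerTK replicate 5, against at most 0.0823 RPKM in the other anti-MerTK libraries. Abca8a gave 0.00703 RPKM in anti-gp120 replicate 2, which is 2 reads, against 0 in the others of its group. With 4 values at 0, any single read would stand apart in this way, so the rate above does not apply to Abca8a. In the anti-MerTK libraries all 5 values of Abca8a were 0, so that group, counted among the 16, could not be flagged.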

How the results depend on the processing

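The log2 fold change of Abca9 was negative under all 18 alternatives run, from -1.10 to -0.87, with adjusted p-values from 7.6e-06 to 0.0844. Leaving out 1 library gave -1.10 to -0.88, and the call was lost in 4 of these 10 fits and in 8 libraries (-0.91), the 8-library and length-offset settings being added after seeing the data. Abca2, Abca3 and Abca5 stayed negative and uncalled under the same 18 alternatives. Abca7 was negative under 17 and gave 0.0426 with transcript length offsets. Over all genes, 438 calls of 13588 genes became 204 in 8 libraries and 70 to 654 when 1 library was left out. DESeq2, which also took in 22023 genes with its own filtering, gave 1138 (388 for edgeR on those genes). Length offsets gave 283 of the 11618 genes with a length (425 there without offsets). Of the 5 genes most like Abca9, 2 were kept by Spearman's rho. Without the filter on low counts, Abca6 gave -0.04, Abca8b -0.34 and Abca8a -2.07 (adjusted p = 0.994, 0.824 and 0.499 in edgeR), the last from 2 reads. No paired analysis was possible because the labels give no replicate numbers. Depth limits Abca5, Abca6, Abca8a and Abca8b, and the single time point and unstated source of the libraries limit all values. Cause of the changed calls was not tested.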
